A study of Bos taurus with 11 samples.

Results

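The miR-183 cluster is a group of 3 miRNAs, *miR-183*, *miR-182* and *miR-96*, and it was examined here together with *miR-1271*, a miRNA that lies elsewhere in the genome and shares the seed of *miR-96*. The rows bta-miR-183, bta-miR-182, bta-miR-96 and bta-miR-1271 were taken by name from the deposited table of read counts, 4 of the 796 miRNAs listed there. Each had reads in every library, and all 4 passed the filter on low counts. The 11 small RNA libraries came from the mammary gland of 5 Holstein and 6 Montbéliarde cows (*Bos taurus*), 1 biopsy and library per cow. All cows were in mid-lactation, received the same diet and were sampled from the rear udder, and 1 further Holstein cow was removed by the study because of mastitis. The breeds were compared because they differ in dairy performance. A biopsy holds secretory epithelium together with myoepithelium, stroma, vessels and blood cells, so each value is an average over these cells.

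The genes of *miR-183*, *miR-96* and *miR-182* are transcribed as 1 precursor, which is cut into separate mature miRNAs. The cluster is best known from sensory organs, where it is strongly expressed in photoreceptors and in the hair cells of the inner ear, and it is also expressed in many epithelia and in breast tumours. The seed is the short stretch near the start of a miRNA that pairs with target mRNAs. *MiR-96* and *miR-1271* have the same seed and *miR-182* has a closely related one, so that their predicted targets overlap. In breast cancer cells, *miR-96* and *miR-182* repress *FOXO1*, a transcription factor that restrains cell proliferation. The RefSeq annotation of a later bovine assembly than the one used by the authors lists *MIR182*, *MIR96* and *MIR183* as direct neighbours, after *NRF1*, and places *MIR1271* inside *ARL10*. No coordinates are given because the assemblies differ.

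Levels are given as normalized read counts, in which each library is scaled by its DESeq2 size factor. Between 7431936 and 16808976 reads were counted on miRNAs per Holstein library, with a mean of 1.18e+07. For Montbéliarde the range was 6087865 to 11395785 and the mean 8.92e+06, so depth differed along with breed. The paper also reports a lower rate of cleaned reads for the Montbéliarde libraries. In any library, 3 reads, the limit that a count of 0 allows, corresponded to at most 4.93e-05% of the counted reads. The 4 miRNAs lay far above this limit. The least abundant, *miR-1271*, had 45 to 265 reads per library, and *miR-96* had 115 to 407. Intervals for single libraries are Wilson 95% confidence intervals and cover the counting error only. PCR copies were not told apart, and the efficiency of adapter ligation differs between miRNAs, so that levels of different miRNAs are compared here as read counts.

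The cluster was carried almost entirely by *miR-182*. It ranked 35th of the listed miRNAs by mean normalized read count, whereas *miR-183* ranked 83rd, *miR-96* 168th and *miR-1271* 203rd. Over the 11 libraries the mean level was 26519 ± 3235 (SD, n = 11) for *miR-182*, 2680 ± 883 for *miR-183*, 226 ± 58.8 for *miR-96* and 124 ± 79.7 for *miR-1271*. Of the reads of the 3 cluster miRNAs, *miR-182* held 89.0% ± 3.18 (SD) in the 5 Holstein cows and 90.9% ± 3.39 (SD) in the 6 Montbéliarde cows. The share of *miR-96* in these reads was only 0.822% ± 0.219 in Holstein and 0.734% ± 0.217 in Montbéliarde. Together the 3 miRNAs made up 0.237% to 0.347% of the counted reads of a Holstein library and 0.262% to 0.334% of those of a Montbéliarde library.

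In Holstein, the normalized read counts of *miR-182* were 28812 in CNLX1, 21822 in CNLX3, 22904 in CNLX5, 25227 in CNLX7 and 31101 in CNLX9. The Montbéliarde libraries were between 22783 and 31252, with a median of 27534. The 2 ranges almost coincided, and only CNLX17 was above the highest Holstein library. Holstein cows averaged 25973 ± 3923 (SD, n = 5) and Montbéliarde cows 26974 ± 2842 (SD, n = 6). The log2FC, Montbéliarde over Holstein, was 0.045 (SE 0.14; edgeR quasi-likelihood F test, Benjamini-Hochberg adjusted p = 0.903), with a 95% interval of -0.25 to 0.34. Its sign changed, to -0.053, when library size was a covariate. Cows varied little in *miR-182*. Over the 11 libraries its coefficient of variation was 12.2%. The biological coefficient of variation of edgeR was 0.195, against a median of 0.324 over the 550 miRNAs tested. This is an estimate of the spread between cows after counting error that is drawn toward the value of miRNAs of similar abundance.

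For *miR-183*, the Holstein libraries were at 2797 in CNLX1, 3447 in CNLX3, 3527 in CNLX5, 2353 in CNLX7 and 2343 in CNLX9. The Montbéliarde libraries had a median of 2192, with a lowest value of 1597 in CNLX19 and a highest value of 4690 in CNLX15. Apart from CNLX15, every Montbéliarde library was below every Holstein library. The means were 2893 ± 573 (SD, n = 5) and 2503 ± 1101 (SD, n = 6), and the log2FC was -0.22 (SE 0.24; edgeR, adjusted p = 0.713). The 95% interval of the log2FC ran from -0.73 to 0.28, so that these data leave room for a difference in either direction. Without CNLX15 the log2FC was -0.40 (SE 0.16; edgeR, unadjusted p = 0.0257, adjusted p = 0.272), which still did not pass the limit of 0.05.

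*MiR-96*, the rarest product of the cluster, was at 251, 293, 246, 185 and 199 in the Holstein libraries CNLX1, CNLX3, CNLX5, CNLX7 and CNLX9. In Montbéliarde it was lowest in CNLX19, at 143, and highest in CNLX15, at 340, with a median of 202. The breeds overlapped widely. The 5 Holstein cows averaged 235 ± 43.3 (SD) and the 6 Montbéliarde cows 219 ± 72.6 (SD), and the log2FC was -0.12 (SE 0.22, 95% interval -0.58 to 0.35; edgeR, adjusted p = 0.842). This sign turned when 1 of 2 libraries was left out, with a log2FC of 0.025 without CNLX3 and of 0.019 without CNLX19.

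Of the 4 miRNAs, *miR-1271* had the largest breed difference. Its normalized read counts in Holstein were 63.2 in CNLX1, 100 in CNLX3, 102 in CNLX5, 52.8 in CNLX7 and 58.6 in CNLX9. In Montbéliarde the lowest value was 97.3 in CNLX23, the median 125 and the highest 331 in CNLX15. Of the 6 Montbéliarde libraries, 5 were above the highest Holstein library, and CNLX23 fell between the Holstein libraries. Holstein averaged 75.4 ± 23.8 (SD, n = 5) and Montbéliarde 164 ± 89.3 (SD, n = 6). The log2FC was 1.11 (SE 0.33, 95% interval 0.41 to 1.81), a fitted level 2.16-fold higher in Montbéliarde. In edgeR its unadjusted p of 0.00415 ranked 12th of the 550 tested, but the p adjusted over these miRNAs, 0.171, did not pass the limit of 0.05. With the Wald test of DESeq2, the package used by the authors, the adjusted p was 0.0363. As *miR-1271* was chosen with results of these libraries known, neither p is independent evidence.

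None of the 4 miRNAs was thus called by edgeR, against 0.364% of all tested miRNAs, and 1 of the 4 was called by DESeq2, against 4.86% of the miRNAs with an adjusted p in that test. At an unadjusted p of at most 0.05, edgeR called 1 of the 4, *miR-1271*, against 14.2% of all miRNAs in either direction and 7.64% in the direction of *miR-1271*, higher in Montbéliarde. The normalized levels of the breeds did not overlap for 2% of the tested miRNAs and for none of the 4. As the biopsies are bulk tissue, fewer cells that contain a miRNA and less of it per cell cannot be told apart.

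**Figure D1:**
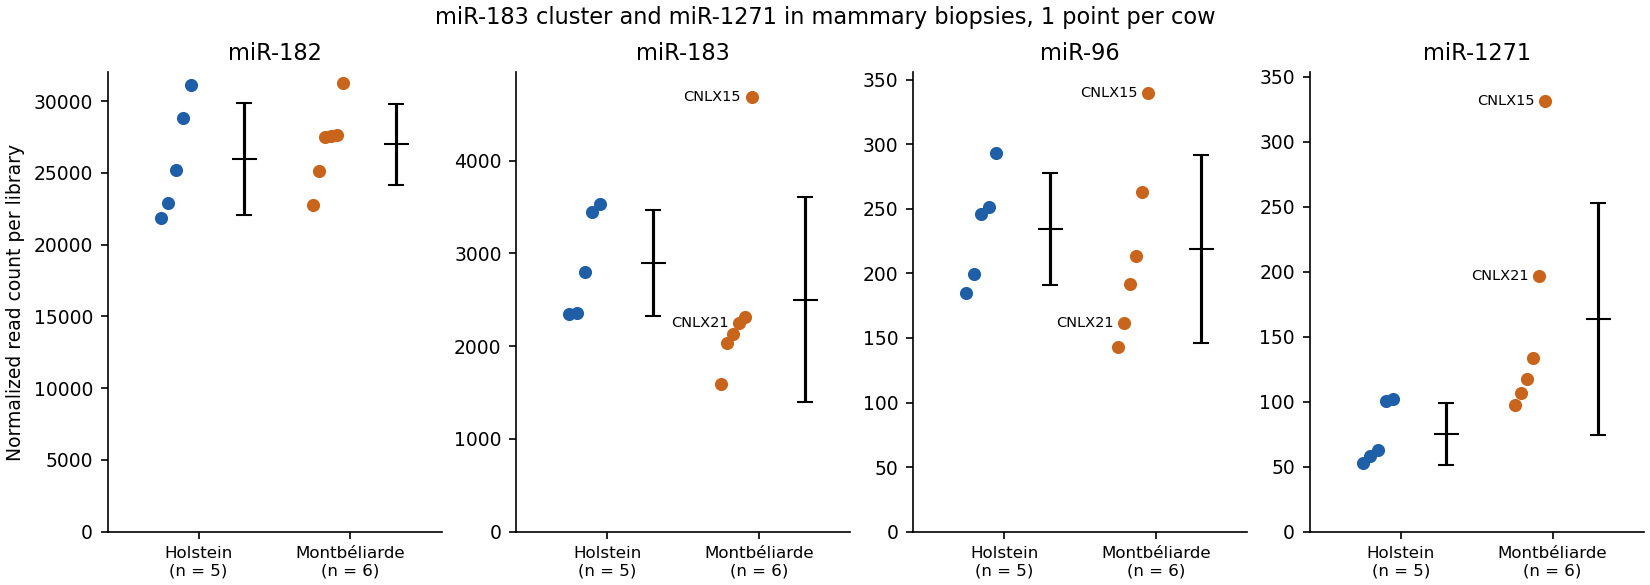
Normalized read counts (vertical axes, each starting at 0) of *miR-182*, *miR-183*, *miR-96* and *miR-1271* in 5 Holstein libraries (blue) and 6 Montbéliarde libraries (orange), with the mean and SD of each breed as black bars beside the points. The breeds overlapped for each miRNA, CNLX15 was the highest library for *miR-183*, *miR-96* and *miR-1271*, and 5 of the 6 Montbéliarde libraries were above all Holstein libraries for *miR-1271*.

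Whether the coefficient of variation between cows was higher in Montbéliarde depended on CNLX15 for *miR-183* and *miR-1271*. For *miR-96* and *miR-182* the order of the breeds was the same without CNLX15. With all libraries, the coefficient of variation of *miR-183* was 44.0% in Montbéliarde and 19.8% in Holstein, and without CNLX15 the Montbéliarde value was 13.7%, below that of Holstein. For *miR-1271* it was 54.5% against 31.6%, and 30.4% in Montbéliarde without CNLX15. The SD of *miR-1271* in Montbéliarde was 3.75 times that in Holstein with CNLX15 and 1.66 times without it. For *miR-96* the coefficient of variation was 33.2% in Montbéliarde and 18.5% in Holstein, and 24.0% in Montbéliarde without CNLX15. *MiR-182*, for which CNLX15 was within the range of the other libraries, had 10.5% in Montbéliarde (11.8% without CNLX15) and 15.1% in Holstein. These differences in spread were not tested.

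**Figure D2:**
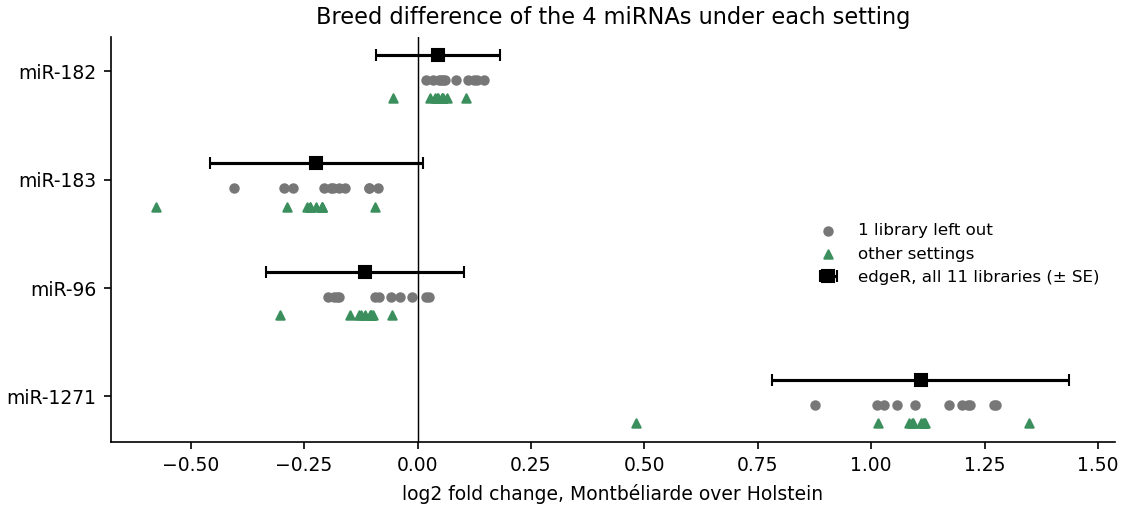
Log2 fold change, Montbéliarde over Holstein (horizontal axis), of each miRNA: black squares with bars show the edgeR estimate from all 11 libraries ± 1 standard error, grey circles the estimates with 1 library left out, and green triangles those with another test, normalization, filter or covariate. The estimates of *miR-1271* stayed above 0 in all of these, with a lowest value of 0.48, whereas those of *miR-182* and *miR-96* lay on either side of 0.

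Ratios between miRNAs of the same library do not depend on how libraries are scaled. They were used to ask whether the products of the shared precursor kept their proportions. The count of *miR-182* was between 6.33 and 13.3 times that of *miR-183* in Holstein, and between 5.86 (CNLX15) and 17.3 (CNLX19) times in Montbéliarde. Its mean was 9.42 ± 2.98 (SD) for the 5 Holstein cows and 12.1 ± 4.02 (SD) for the 6 Montbéliarde cows, and the breeds did not differ beyond their spread (two-sided exact permutation test, p = 0.294, adjusted p = 0.411 over 3 ratios). The proportion of *miR-96* to *miR-183* was steadier. Holstein averaged 0.0816 ± 0.00780 (SD, n = 5) and Montbéliarde 0.0908 ± 0.0201 (SD, n = 6), again a difference that did not pass (two-sided exact permutation test, p = 0.411, adjusted p = 0.411). Over the 11 libraries, the coefficient of variation was 18.2% for *miR-96* over *miR-183* and 33.8% for *miR-182* over *miR-183*.

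Reads of *miR-1271* relative to *miR-96*, which has the same seed, were on average higher in Montbéliarde. In Holstein, *miR-1271* had 0.252 (CNLX1), 0.343 (CNLX3), 0.415 (CNLX5), 0.286 (CNLX7) and 0.294 (CNLX9) reads per read of *miR-96*. In Montbéliarde the ratio ranged from 0.370 in CNLX23 to 1.22 in CNLX21. Again 5 of the 6 Montbéliarde libraries were above all Holstein libraries, and in CNLX21 *miR-1271* was the more abundant of the pair. Holstein averaged 0.318 ± 0.0634 (SD, n = 5) and Montbéliarde 0.761 ± 0.307 (SD, n = 6). On the log2 scale Montbéliarde was higher by 1.18, which exceeded that spread (two-sided exact permutation test, p = 0.00649, adjusted p = 0.0195 over 3 ratios). This ratio rests on the same *miR-1271* counts as the breed difference above and is no independent support for it. As *miR-1271* was chosen with results of these libraries known, the p of the ratio is no independent evidence either. Its adjustment covers the 3 ratios only, not all tested miRNAs. The adjusted p was 0.0974 with medians in place of means, and 0.0571 when CNLX1, CNLX3, CNLX7 or CNLX9 was left out (exact permutation tests).

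As a share of the reads of this pair, *miR-1271* held 24.0% ± 3.56 (SD) in the 5 Holstein cows and 41.8% ± 10.1 (SD) in the 6 Montbéliarde cows. The lowest share of a single library was 20.1% in CNLX1 (Wilson 95% confidence interval 16.3 to 24.6%), and the highest was 55.0% in CNLX21 (50.2 to 59.6%). CNLX23, the Montbéliarde library with the lowest share, was at 27.0% (23.2 to 31.3%), within the Holstein range. Summed, the normalized read counts of both miRNAs were 310 ± 63.8 (SD, n = 5) in the former breed and 382 ± 147 (SD, n = 6) in the latter. It was much smaller than the level of *miR-182*, which has the related seed.

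**Figure D3:**
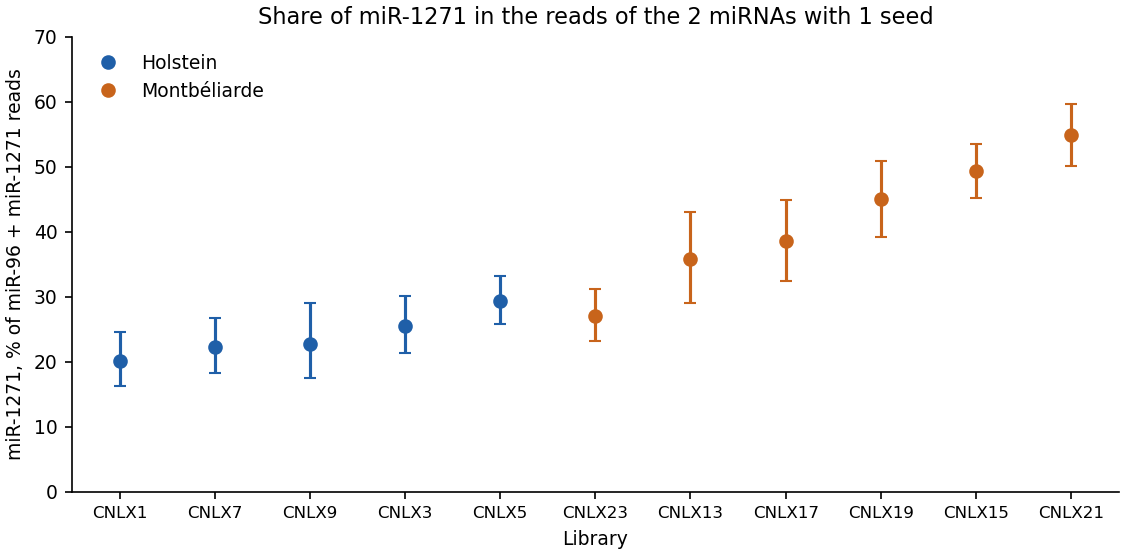
Share of *miR-1271* in the reads of *miR-96* and *miR-1271* together (vertical axis, %), by library (horizontal axis, ordered within breed), with Wilson 95% confidence intervals as bars. Holstein libraries (blue) lay between 20.1% and 29.3%, and all Montbéliarde libraries (orange) but CNLX23 lay above them, up to 55.0%.

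Across the 11 libraries, *miR-96* followed *miR-183*, and *miR-182* followed neither. On the log2(normalized read count + 1) scale, Pearson's r between *miR-183* and *miR-96* was 0.83 (permutation test, p = 0.00170, adjusted p = 0.0102 over 6 pairs), and Spearman's rho was 0.62 (permutation test, p = 0.0477, adjusted p = 0.286). Without CNLX5 and CNLX15, the libraries farthest from the median of *miR-183*, r was 0.74, and on deviations from the breed means it was 0.82. The adjusted p of r passed the limit of 0.05 with all libraries, but not without CNLX15 (r = 0.74, permutation test, adjusted p = 0.0908) or without CNLX19 (r = 0.76, permutation test, adjusted p = 0.0611), nor when levels were taken as CPM (r = 0.75, permutation test, adjusted p = 0.0548). Of 316 other miRNAs with a mean normalized read count of at least 20, *miR-183* was the one most like *miR-96*, and *miR-96* was the 8th most like *miR-183*.

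Between *miR-183* and *miR-182*, r was -0.32 (permutation test, p = 0.345, adjusted p = 0.688) and rho was -0.35 (permutation test, p = 0.287, adjusted p = 0.860). Without CNLX5 and CNLX15 it was -0.41. *MiR-182* held rank 238 of 316 by likeness to *miR-183*, although both are cut from 1 precursor. For *miR-182* and *miR-96* r was -0.14 (permutation test, adjusted p = 0.688), rho was -0.18 (permutation test, adjusted p = 1) and r without the 2 farthest libraries, CNLX3 and CNLX21, was -0.17. None of the 4 miRNAs had counts in a constant ratio to those of another miRNA, within 1%, a pattern that *miR-3600* and *miR-22-3p* showed and that leaves uncertain which of these 2 a read came from.

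*MiR-1271* and *miR-183* were correlated on deviations from the breed means but not over all libraries. Over all 11 libraries r was 0.35 (permutation test, p = 0.294, adjusted p = 0.688), rho was -0.13 (permutation test, p = 0.715, adjusted p = 1), and without CNLX5 and CNLX15 r was -0.30. On those deviations r was 0.85 (permutation test, p = 0.00137, adjusted p = 0.00456). The permutation moved deviations across breeds and made no allowance for the breed means taken out beforehand. When CNLX15 was left out, r on deviations was 0.65, for which no p was computed. Within the 5 Holstein libraries alone r was 0.97, and within the 6 Montbéliarde libraries alone it was 0.82. CNLX15 was by far the highest Montbéliarde library for both miRNAs, and r within Montbéliarde was not computed without it. Of the other Montbéliarde libraries, CNLX13 and CNLX21 had similar *miR-183* levels, 2313 and 2251, but *miR-1271* levels of 107 and 197. A correlation within Montbéliarde apart from CNLX15 is therefore not shown. Between the breeds the 2 means differed in opposite directions, *miR-183* being lower and *miR-1271* higher in Montbéliarde. For *miR-1271* and *miR-96*, r was 0.24 (permutation test, adjusted p = 0.688) with a rho of 0 (permutation test, adjusted p = 1), and it was -0.20 without CNLX15 and CNLX19. For *miR-1271* and *miR-182*, r was -0.14 (permutation test, adjusted p = 0.688) and rho was -0.06 (permutation test, adjusted p = 1), with an r of 0.01 without CNLX3 and CNLX21.

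**Figure D4:**
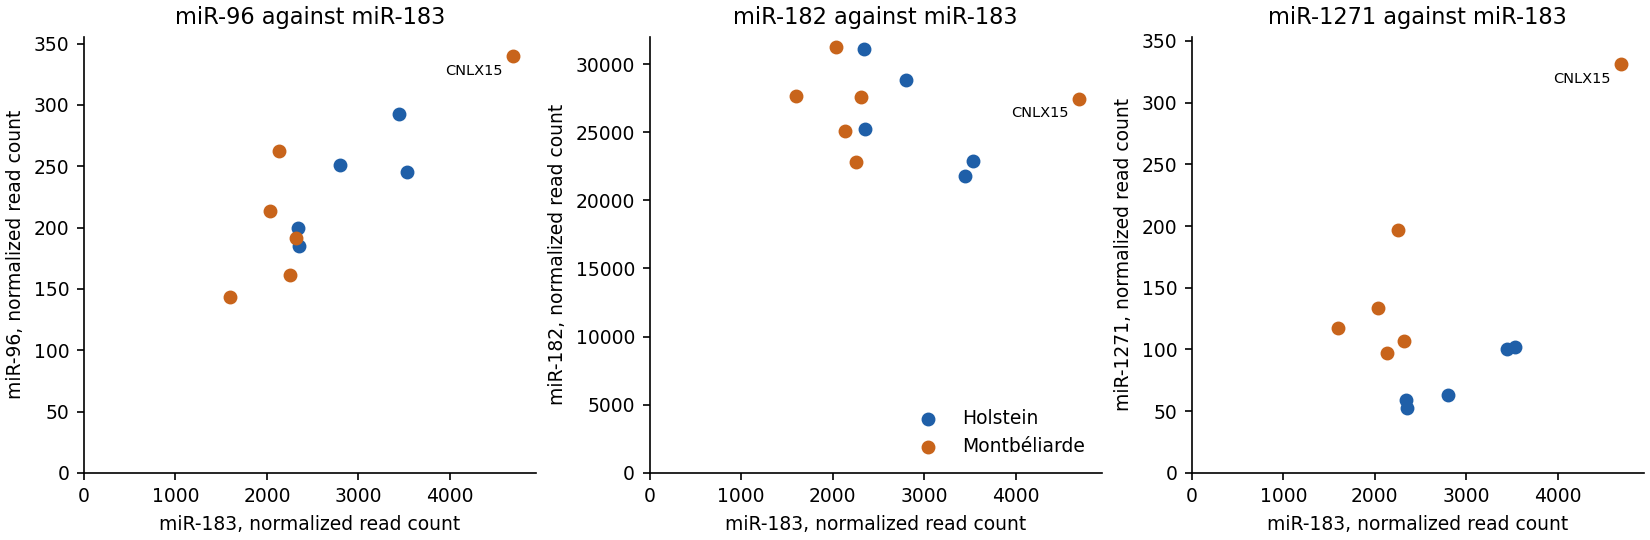
Normalized read counts of *miR-96*, *miR-182* and *miR-1271* (vertical axes) against that of *miR-183* (horizontal axes) in 5 Holstein (blue) and 6 Montbéliarde (orange) libraries, all axes starting at 0. *MiR-96* rose with *miR-183* (r = 0.83), *miR-182* did not (r = -0.32), and for *miR-1271* most Montbéliarde libraries lay above the Holstein libraries, with CNLX15 at the upper right.

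The miRNAs outside this group whose pattern over the 11 libraries was most like each member are given as a description. *MiR-1271* was most like *miR-100* (r = 0.98) and *miR-99b* (r = 0.96), miRNAs of 1 family that represses *MTOR*. *MiR-183* was most like *miR-10a* (r = 0.91), which lies in a *HOX* gene cluster, and *miR-1249* (r = 0.90). *MiR-182* was most like *let-7e* (r = 0.75) and *miR-3600* (r = 0.70), and *miR-96* most like *miR-411c-3p* (r = 0.79) and *miR-374b* (r = 0.78). All levels of 1 library share its scaling, and for *miR-1271* part of the likeness is the breed difference. On deviations from the breed means its r with *miR-100* was 0.96.

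The cell types of the biopsy were checked with lists of marker miRNAs. Of the epithelial list (*miR-200a*, *miR-200b*, *miR-200c*, *miR-141*, *miR-429*, *miR-205* and *miR-203*), 6 were found under these names, all above 0 in every library, and *miR-203* was not. Their summed normalized read count ranged from 367535 to 466746 over Holstein cows and from 180093 to 469496 over Montbéliarde cows. No epithelial marker was called by edgeR, and 2 of the 6, *miR-141* and *miR-200c*, had an unadjusted p of at most 0.05, both lower in Montbéliarde, against 6.55% of all tested miRNAs in that direction. The median log2FC of the list was -0.21, against 0.03 over all tested miRNAs. *MiR-200a* and *miR-200b* had a log2FC of -0.04 and -0.10, and *miR-205*, a miRNA of basal epithelial cells, one of 0.38 (edgeR, unadjusted p = 0.0559). Between 56.1% and 78.1% of the epithelial sum was *miR-141*. *MiR-141* averaged 310902 ± 46034 (SD) over the 5 Holstein cows and 188093 ± 90722 (SD) over the 6 Montbéliarde cows, with a log2FC of -0.74 (SE 0.26; edgeR, adjusted p = 0.217).

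The list for smooth muscle, myoepithelium and fibroblasts (*miR-143*, *miR-145*, *miR-199a-3p*, *miR-199a-5p* and *miR-214*) had its 5 miRNAs in every library. Its sum, of which *miR-143* made up 99.3% to 99.6% in each library, ranged from 1511910 to 2303540 over Holstein cows and from 1926890 to 3866930 over Montbéliarde cows. None of the list was called by edgeR, and 2 of the 5, *miR-143* and *miR-199a-3p*, had an unadjusted p of at most 0.05, both higher in Montbéliarde, against 7.64% of all tested miRNAs in that direction. The median log2FC was 0.58, and that of *miR-145* was -0.27 (edgeR, unadjusted p = 0.290). The 2 sums, and so mainly *miR-141* and *miR-143*, were at their extremes in the 2 libraries with the most *miR-1271*. No correlation of *miR-1271* with these sums was computed. CNLX15 and CNLX21, the libraries with the most *miR-1271*, had the lowest epithelial sums, 181193 and 180093, and the highest contractile sums, 3866930 and 3163050. CNLX13, however, had the highest epithelial sum of all libraries and a *miR-1271* level of 107, above every Holstein library. CNLX17 had a contractile sum of 3120260, close to that of CNLX21, with a *miR-1271* level of 134. CNLX19 had an epithelial sum of 228709, below every Holstein library, with a *miR-1271* level of 117.

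With the mean log2 level of the miR-200 family as a covariate, the log2FC of *miR-1271* fell to 0.48 (SE 0.21; edgeR, unadjusted p = 0.0389, adjusted p = 0.390). That of *miR-183* became -0.58 (SE 0.18; edgeR, unadjusted p = 0.00577, adjusted p = 0.234), that of *miR-96* -0.30 (edgeR, adjusted p = 0.659) and that of *miR-182* 0.11 (edgeR, adjusted p = 0.847). No miRNA of the table was called by edgeR in this fit. The part of cell composition in the difference of *miR-1271* was not tested beyond these values.

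**Figure D5:**
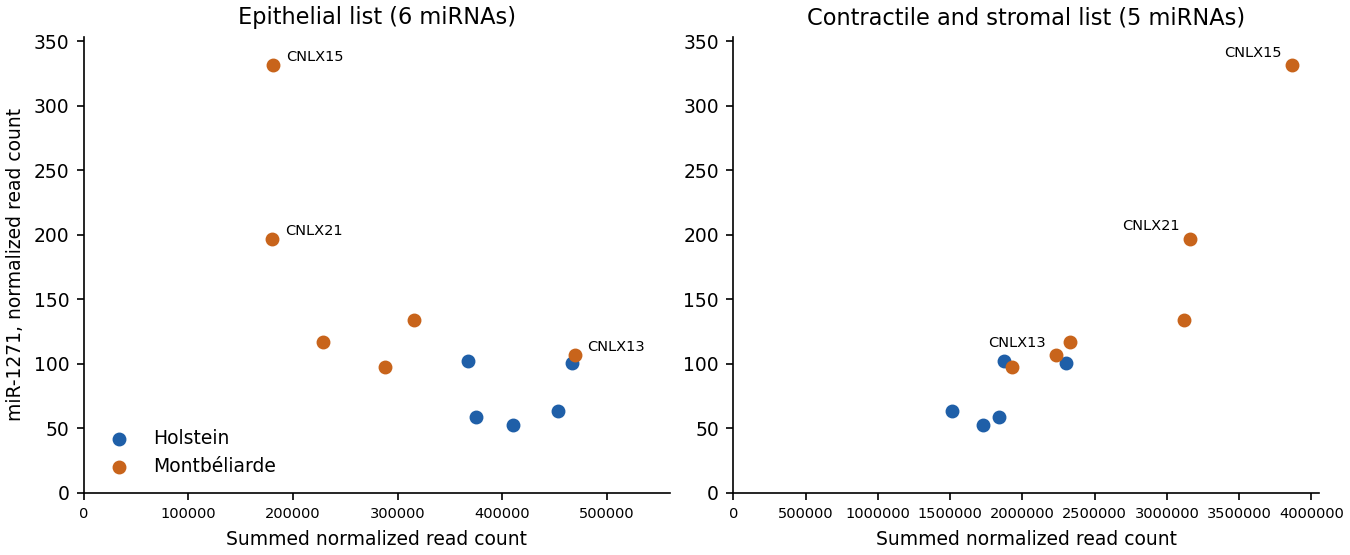
Normalized read count of *miR-1271* (vertical axes) against the summed normalized read count (horizontal axes) of the epithelial list on the left and of the contractile and stromal list on the right, for 5 Holstein (blue) and 6 Montbéliarde (orange) libraries. CNLX15 and CNLX21 combined the highest *miR-1271* levels, 331 and 197, with the lowest epithelial sums and the highest contractile sums.

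Other miRNAs known to repress *FOXO1* were listed as *miR-27a-3p*, *miR-27b*, *miR-223*, *miR-370*, *miR-135a* and *miR-9-5p*, of which 5 were found under these names. None was called by edgeR. Of the 5, 1 (*miR-135a*, lower in Montbéliarde) had an unadjusted p of at most 0.05, against 14.2% of all tested miRNAs in either direction, and the median log2FC of the 5 was 0.09. The most abundant of them, *miR-27b*, averaged 288637 ± 21474 (SD) over the 5 Holstein cows and 308213 ± 43423 (SD) over the 6 Montbéliarde cows, with a log2FC of 0.09 (SE 0.14; edgeR, adjusted p = 0.811). Next came *miR-27a-3p*, at 13669 ± 1156 and 15344 ± 2678. *MiR-223*, a miRNA of myeloid cells, was at 133 ± 125 and 190 ± 242. *MiR-135a* was at 51.3 ± 20.9 in Holstein and 30.5 ± 12.7 in Montbéliarde, and its adjusted p was 0.325 (edgeR). The table also holds a miRNA named *miR-9*, with no arm given, which is named here after its values were seen. It was at 17.9 ± 11.2 in Holstein and 49.6 ± 53.0 in Montbéliarde, highest in CNLX15 at 155, with a log2FC of 1.40 (SE 0.58; edgeR, unadjusted p = 0.0297, adjusted p = 0.309). In read counts, *miR-27b* exceeded *miR-182* in every library, and *miR-96* and *miR-1271* lay below both *miR-27* miRNAs.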

How the data were processed

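Per the labels, each small RNA library took 2000 ng of RNA and 13 PCR cycles. The authors trimmed adaptors, removed reads with ambiguous bases, kept a fixed range of read lengths and quantified miRNAs with ncPRO-seq and miRDeep2 on btau5.0.1 with miRBase. The authors deposited the raw counts of each mature miRNA by library, and a signal, the normalized read counts, equal to these counts divided by DESeq2 size factors (DESeq2 1.18.1 per the submitters' processing notes). How reads that match several miRNAs were counted is not given in the sources used here. The authors' breed means, log2 fold changes and p-values were not used.

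Breeds (5 Holstein, 6 Montbéliarde) were tested with edgeR 4.0.16 (R 4.3.3; TMM, robust glmQLFit, glmQLFTest) on 550 of the 754 detected miRNAs, those with a total of at least 10 counts. Adjustment over all of these was by Benjamini-Hochberg with a limit of 0.05. Standard errors were derived from the F statistic, and intervals from its t distribution. Ratios were tested by two-sided exact permutation over 462 splits, whose smallest p is 0.00216, and correlations with 100000 resamples. DESeq2 1.42.0 and limma 3.58.1 were alternatives. On counts simulated for 550 miRNAs, edgeR recovered 55.5% of those changed by 1.10 on the log2 scale and 22.7% of those changed by 0.75. A large part of the miRNAs was changed in each simulation, many more than the 2 called in the data, which makes the adjustment more lenient. These shares are therefore not the chance of calling *miR-1271* in these data. Figures were drawn with matplotlib 3.10.9.

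The miRNAs and marker lists were chosen with earlier results of these data known. Named outside the 4 were the 2 miRNAs most like each by Pearson's r, among those with a mean of at least 20, and up to 4 examples of a list. The breeds carry separate runs of library tags, CNLX1 to CNLX9 and CNLX13 to CNLX23. If these follow the order of preparation, that order and breed cannot be told apart. Mature sequences were not used here.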

Additional observations from a re-analysis of the deposited data

Results flagged for a closer look

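The level of *miR-183* in the Montbéliarde library CNLX15 stood apart from the other 5 Montbéliarde libraries. It was 4690 normalized read counts, and its gap to the next library, CNLX13 at 2313, was 0.768 of the whole range of the breed. The other miRNAs, the ratios and the summed level of the cluster were checked in the same way, 18 groups of libraries in all, and no other value stood apart so far. Chance alone would mark about 1 in 20 such groups. By normalized read count CNLX15 was also the highest library for *miR-96* and *miR-1271*, and its level of *miR-182*, 27468, was within the range of the other libraries. As a share of the counted reads, *miR-96* was higher in CNLX23, at 0.00318%, than in CNLX15, at 0.00298%.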

How the results depend on the processing

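For *miR-1271*, the log2FC kept its direction under 10 other settings (0.48 to 1.35) and with each library left out (0.88 to 1.28). Adjusted p-values were 0.0363 to 0.390 over these settings and 0.0751 to 0.325 over the libraries left out, and DESeq2's Wald test alone passed the limit, with a log2FC of 1.12. The log2FC of *miR-183* stayed below 0 throughout. For *miR-182* it was -0.053 with library size as a covariate, and for *miR-96* it lay between -0.20 and 0.025 with 1 library left out; the cause was not tested. The number of miRNAs called over the whole table, 2 by edgeR, was 21 with DESeq2, 0 with RLE normalization or the miR-200 covariate, 1 with total counts, and 0 to 6 with 1 library left out.

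The log2 ratio of *miR-1271* to *miR-96*, 1.18, was between 1.02 and 1.36 with 1 library left out and 1.28 with medians. The latter no longer passed, and neither did 4 of the 11 fits with a library left out. Fewer splits are possible in all 11 of these fits, and the cause was not tested. The share of *miR-1271* in the reads of the pair differed by 15.1 to 20.7 percentage points with 1 library left out. The other ratios kept their direction and did not pass in any setting.

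Of the 6 correlations, 1 passed as reported, 0 on CPM, 2 on deviations from the breed means, and 0 to 1 with 1 library left out. With 1 library left out, r ranged from -0.34 to 0.064 for *miR-182* with *miR-96*, from -0.31 to 0.033 for *miR-182* with *miR-1271* (0.0097 without CNLX21), from -0.22 to 0.44 for *miR-183* with *miR-1271* and from -0.26 to 0.45 for *miR-96* with *miR-1271*. The coefficients of variation with 1 library left out were computed after the data had been seen. The low counts of *miR-1271* and *miR-96* limit their precision more than those of *miR-182*. No paired analysis was possible because the cows of the breeds share no number in the labels.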

Other observations

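Markers of other cells were present in all libraries. The 5 leukocyte miRNAs (*miR-142-3p*, *miR-142-5p*, *miR-150*, *miR-155* and *miR-223*) summed to 18031 to 26952 normalized read counts in Holstein cows and 17229 to 39422 in Montbéliarde cows, with the highest sum in CNLX15, the library with the most *miR-183* and *miR-1271*. The erythroid list (*miR-144*, *miR-451* and *miR-486*) ranged from 23603 to 39552 over Holstein and from 23429 to 57421 over Montbéliarde cows. For the arms of *miR-126*, which mark endothelium, the sums were 251466 to 330168 and 239684 to 297167. No miRNA of these 3 lists had an unadjusted p of at most 0.05 by edgeR, and none was at 0 in any library.

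*MiR-7* and *miR-375*, miRNAs of secretory and sensory cells, summed to 17098 to 40035 in Holstein cows and 5061 to 34651 in Montbéliarde cows. Nearly all of this was *miR-375*, and the lowest sum was again in CNLX15. Neither was called by edgeR, and *miR-7*, lower in Montbéliarde with a log2FC of -0.86, was the only one with an unadjusted p of at most 0.05. What sets CNLX15 apart was not tested.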
